A study of Rattus norvegicus with 9 samples.

Results

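The genes described here are 45 genes of the hypoxia response and of glycolysis, followed over 9 arrays of cultured rat cells. They were chosen by symbol, as glycolytic enzymes and their transporters, the HIF subunits and hydroxylases, and well-known hypoxia-induced genes. All 45 were measured, out of 14506 genes with 1 feature each, and no filter on low values was applied. The cells came from adult Sprague Dawley rats, with 3 arrays per group from samples that the design text gives as independent. One group held Schwann cells from sciatic nerve, another held skin-derived precursors (SKPs) from the dorsal trunk, and the last held Schwann cells grown from such SKPs. Schwann cells are the glia of peripheral nerve, and SKPs are precursor cells from dermis that grow as floating spheres. SKP spheres were collected after passage in proliferation medium, whereas both Schwann cell groups were passaged 1 time and lysed once confluent in a medium for Schwann cells. No group received a drug, a gene change or a set oxygen level, per the labels, and the tissue label reads dermis for all 9 arrays although the cell type label names the nerve for 3 of them. The SKP arrays are labelled as data deposited before and analysed again, so that group, array batch, sphere culture and medium cannot be told apart in any comparison with SKPs.

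Cells break glucose down to pyruvate by glycolysis, and either reduce pyruvate to lactate or pass it to the mitochondria. When oxygen is low, the prolyl hydroxylases of the EGLN family stop marking the HIF alpha subunits for destruction, and HIF then binds a short core sequence near its target genes, many of which encode glycolytic enzymes, glucose transporters, collagen hydroxylases and angiogenic factors. In peripheral nerve, Schwann cell glycolysis and lactate export are known for their part in the support of axons, and HIF itself is controlled mainly at the level of the protein, which these arrays do not measure.

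The values are log2 expression values after RMA, and differences are between group means on the same scale, so that 1 unit is a 2-fold difference. The levels of different genes rest on different probes and were not compared. As deposited, the median gene was 0.46 higher in nerve Schwann cells than in SKPs and -0.45 in SKP-derived minus nerve Schwann cells, against -0.01 in SKP-derived Schwann cells minus SKPs. Counts, and the values of genes whose call against SKPs this scaling changed, are therefore also given after cyclic loess, a scaling between arrays that brought these medians to -0.03, -0.02 and -0.03. Markers followed the cell type labels: the mean log2 level of 10 measured Schwann cell markers of 12 listed was 10.52 to 10.64 in nerve, 9.49 to 10.33 in SKP-derived and 5.42 to 5.60 in SKP arrays. Of the 10, 9 were higher in each Schwann cell group than in SKPs, against 19.3% of all genes in SKP-derived and 49.7% in nerve Schwann cells. The mean of 13 dermal mesenchymal markers was 12.20, 12.18 and 10.75 in SKP arrays 1 to 3, 9.06 to 10.26 in nerve and 8.51 to 10.26 in SKP-derived arrays. In these bulk samples, fewer cells of a type and less RNA per cell cannot be told apart. SKP array 3 stood apart on the 45 genes. Counts of the 45 per comparison, and values of several members it moved, are given with and without it, whereas most values outside the 45 are given only with it.

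In both kinds of Schwann cell, 18 of the 45 genes were lower than in SKPs, and these 18 were again lower in both after cyclic loess, where 13.5% of all genes tested were lower in both as deposited and 13.4% under both scalings. They include the glucose transporter Slc2a1, the lactate exporter Slc16a3, hexokinases 1 and 2, all 3 phosphofructokinase subunits, Aldoa, Pgk1, Eno1 and Pkm, the pyruvate dehydrogenase kinase Pdk1 and all 4 collagen hydroxylases. In the other direction, 4 genes were higher in both, namely Epas1, Ldhb, Ndrg1 and Bnip3l, against 18.2% of all genes. A further 17 genes were called in neither comparison, among them Ldha, Gapdh, Vegfa, Car9 and Bnip3, against 26.0% of all genes. A call is a limma adjusted p under 0.05 over all 14506 genes. Both comparisons use the same 3 SKP arrays, so their values stand side by side and their likeness was not tested.

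Between SKP-derived Schwann cells and SKPs, 20 of the 45 genes were lower and 4 were higher, where over all genes tested 22.3% were lower and 19.3% higher. After cyclic loess the counts were 23 and 3, against 23.9% and 18.6% of all genes. Without SKP array 3 they were 18 and 6, against 22.2% and 18.7%. Between nerve Schwann cells and SKPs, 19 genes were lower and 7 higher, where 14.9% of all genes were lower and 49.7% higher on the shifted scale. After cyclic loess 23 were lower and 7 higher, against 25.6% and 22.4%, and without SKP array 3 the counts were 18 and 11, against 15.3% and 49.0%. The share of lower genes among the 45 was thus above that of all genes in each of these settings, whereas the share of higher genes was below it. The median difference over the 45 genes was -0.82 for SKP-derived Schwann cells and -0.60 for nerve Schwann cells, and -0.93 and -0.87 after cyclic loess. Without SKP array 3 it was -0.30 and -0.27, so the size of the median moved with that array by over 1.5 times while its sign did not.

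The mean of the 45 genes per array was 9.54, 9.51 and 10.31 in SKP arrays 1 to 3, 9.23, 9.36 and 9.26 in nerve and 9.01, 8.92 and 8.90 in SKP-derived Schwann cells. All 3 SKP arrays lay above all 6 Schwann cell arrays, and SKP array 3 lay apart from the other SKP arrays by more than these lay from nerve array 2. After cyclic loess the means were 9.66, 9.67 and 10.37 in SKPs, 9.09, 9.18 and 9.04 in nerve and 9.07, 9.03 and 8.87 in SKP-derived Schwann cells, and the order of SKPs over both Schwann cell groups held.

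**Figure D1:**
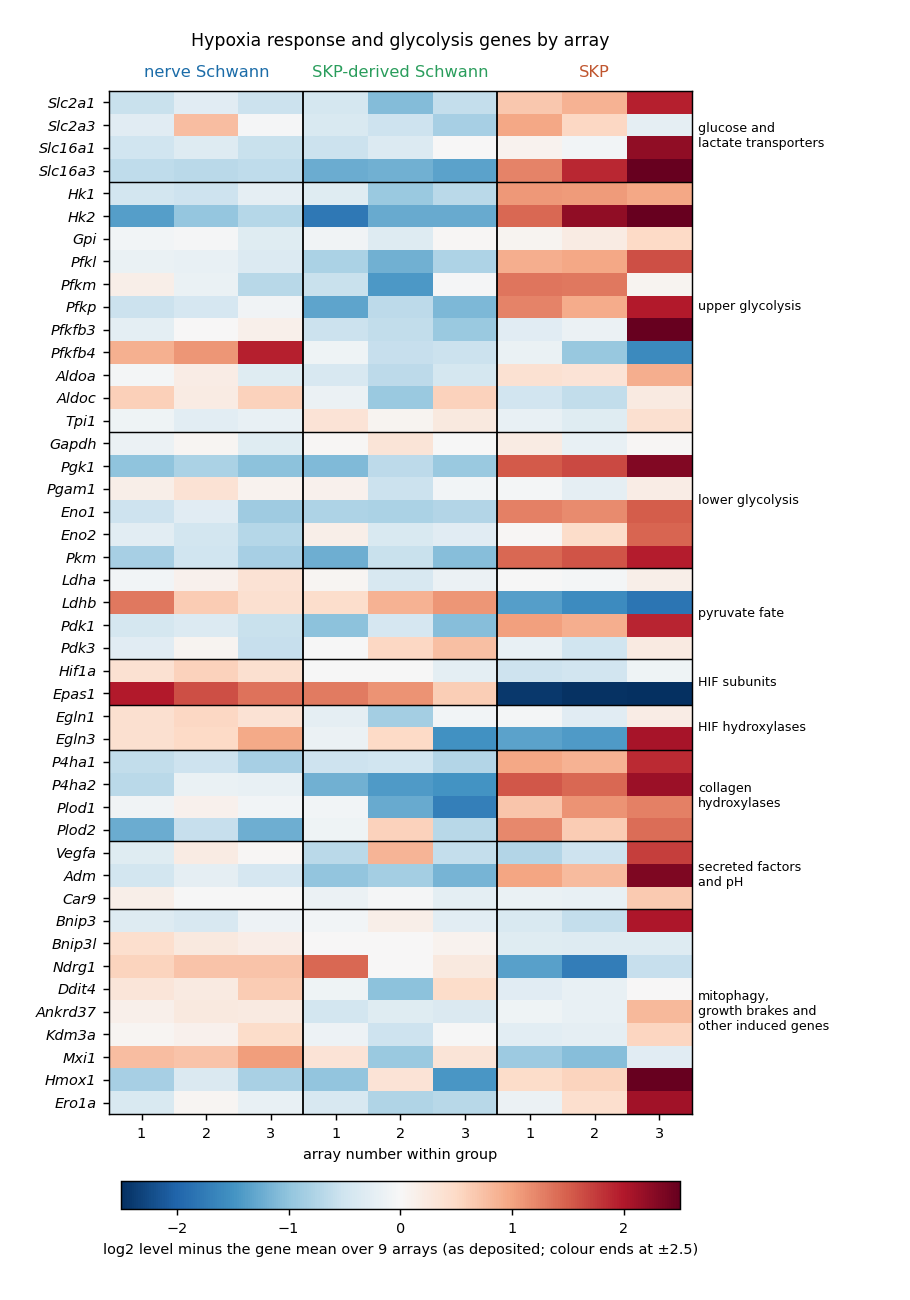
Each of the 45 genes (rows, by role) in each of the 9 arrays (columns, by group and array number), coloured by its log2 level minus its mean over the 9 arrays, as deposited. Hk2, Pgk1, Pkm, Slc16a3 and P4ha2 are above their mean in all 3 SKP columns, Epas1 and Ldhb are below it there, and SKP array 3 differs in colour from SKP arrays 1 and 2 in Egln3, Bnip3, Vegfa and Pfkfb3.

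The start-site sequences of 6 members are shown because they carry, or lack, the core of the HIF response element in genes that differ in how they behaved: P4ha2, Pdk1 and Slc2a1 were lower in both Schwann cell groups, Ldha was called in neither, Bnip3 stood high in SKP array 3 alone, and Epas1 was the member furthest above SKPs. RefSeq windows of assembly GRCr8, from 250 bases before to 50 after the start site, were matched by symbol for 39 of the 45 genes. These genes had 45 windows, since Aldoa, Eno1, Hk1, Kdm3a and Vegfa have more than 1 start site, and each gene shown has 1. Slc2a3, Pgk1, Bnip3l, Ndrg1, Hmox1 and Ero1a had no window. The motifs searched were ACGTG and GCGTG on both strands, and capitals mark each match (CACGT and CACGC are the same motifs on the other strand, and CACGTG holds ACGTG on both strands). Each line reads 5′ to 3′ along the gene.
P4ha2: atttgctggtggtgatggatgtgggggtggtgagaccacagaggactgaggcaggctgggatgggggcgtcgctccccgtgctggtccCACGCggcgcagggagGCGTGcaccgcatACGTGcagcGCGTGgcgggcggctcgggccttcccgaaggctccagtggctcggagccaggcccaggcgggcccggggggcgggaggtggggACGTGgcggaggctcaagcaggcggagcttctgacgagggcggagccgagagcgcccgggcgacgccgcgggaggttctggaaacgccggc
Pdk1: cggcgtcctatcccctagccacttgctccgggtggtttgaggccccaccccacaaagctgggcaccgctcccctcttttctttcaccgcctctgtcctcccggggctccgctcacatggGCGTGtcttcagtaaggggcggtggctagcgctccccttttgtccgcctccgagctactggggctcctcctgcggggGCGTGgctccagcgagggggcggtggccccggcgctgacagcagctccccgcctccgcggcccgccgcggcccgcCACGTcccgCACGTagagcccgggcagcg
Slc2a1: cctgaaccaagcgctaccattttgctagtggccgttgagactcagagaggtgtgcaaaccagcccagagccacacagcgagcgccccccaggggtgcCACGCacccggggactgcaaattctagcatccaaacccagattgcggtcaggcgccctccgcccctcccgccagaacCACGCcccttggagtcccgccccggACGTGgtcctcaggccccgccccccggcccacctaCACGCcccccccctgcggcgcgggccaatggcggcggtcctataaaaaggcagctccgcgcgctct
Bnip3: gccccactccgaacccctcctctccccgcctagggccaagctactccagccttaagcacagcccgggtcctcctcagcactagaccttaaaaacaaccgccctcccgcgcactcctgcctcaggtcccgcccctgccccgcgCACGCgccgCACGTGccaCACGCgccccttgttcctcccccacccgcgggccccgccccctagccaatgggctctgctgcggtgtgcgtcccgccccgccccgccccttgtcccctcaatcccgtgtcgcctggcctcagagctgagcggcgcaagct
Ldha: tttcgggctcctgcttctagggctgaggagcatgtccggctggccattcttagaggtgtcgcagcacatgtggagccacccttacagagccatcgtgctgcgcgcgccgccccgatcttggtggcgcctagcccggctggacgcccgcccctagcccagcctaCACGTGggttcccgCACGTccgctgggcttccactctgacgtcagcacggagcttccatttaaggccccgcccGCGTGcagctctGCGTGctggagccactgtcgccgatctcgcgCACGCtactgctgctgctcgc
Epas1: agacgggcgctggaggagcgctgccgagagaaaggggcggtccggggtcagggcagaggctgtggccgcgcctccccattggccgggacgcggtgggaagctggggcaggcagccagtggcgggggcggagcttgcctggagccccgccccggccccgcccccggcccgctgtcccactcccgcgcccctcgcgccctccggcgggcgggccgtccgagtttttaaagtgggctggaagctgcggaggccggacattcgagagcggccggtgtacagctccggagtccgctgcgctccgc
These windows lie at chr10:38743644-38743943 (plus strand) for P4ha2, chr3:77113264-77113563 (plus) for Pdk1, chr5:138002272-138002571 (plus) for Slc2a1, chr1:203154913-203155212 (minus) for Bnip3, chr1:106507842-106508141 (plus) for Ldha and chr6:13624680-13624979 (minus) for Epas1, and each spans the first bases of the annotated transcript and the sequence before it. Matches numbered 5 in P4ha2, 4 each in Pdk1, Slc2a1 and Bnip3, 6 in Ldha and 0 in Epas1. Either motif was in at least 1 window of 30 of the 39 genes (76.9%), against 52.9% of the 11968 tested genes with a window. Of the 39, 12.8% have more than 1 window, against 3.74% of all, and with the window listed first for each gene the shares were 69.2% and 52.1%. For ACGTG alone the shares were 64.1% and 22.8% over any window (56.4% and 22.3% over the first listed), and for GCGTG 53.8% and 41.3% (51.3% and 40.6%). The members were picked in part as known HIF targets, so this share describes the list, and a match in the letters is neither a bound site nor a cause.

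The transporters bring glucose in and carry lactate across the membrane. Of 4, 3 were lower in SKP-derived and 2 in nerve Schwann cells, and none was higher. For this and the later counts by role, 22.3% of all genes were lower and 19.3% higher in SKP-derived cells. In nerve Schwann cells these shares were 14.9% and 49.7%. Slc16a3, which exports lactate from glycolytic cells, was at 8.92, 9.56 and 10.29 in SKP arrays 1 to 3, 7.03, 6.997 and 7.05 in nerve Schwann cells and 6.43, 6.47 and 6.34 in SKP-derived Schwann cells. The groups did not overlap, and the 3 nerve arrays differed by less than 0.1. The differences from SKPs were -3.18 (SE 0.28, adjusted p = 3.48e-05) in SKP-derived and -2.56 (SE 0.28, adjusted p = 8.6e-05) in nerve Schwann cells. Slc2a1, the basal glucose transporter, was at 10.35, 10.55 and 11.62 in SKP arrays 1 to 3, 9.12, 9.39 and 9.13 in nerve Schwann cells and 9.24, 8.59 and 9.07 in SKP-derived Schwann cells. Every SKP array was above every Schwann cell array, with SKP array 3 highest, and the differences were -1.87 (SE 0.31, adjusted p = 0.0012) in SKP-derived and -1.62 (SE 0.31, adjusted p = 0.00152) in nerve Schwann cells. Without SKP array 3 they were -1.48 and -1.23. Slc2a3, a high-affinity glucose transporter, was at 6.28, 5.83 and 5.09 in SKP arrays 1 to 3, 5.02, 6.08 and 5.27 in nerve Schwann cells and 4.93, 4.80 and 4.49 in SKP-derived Schwann cells, and here SKP array 3 was the lowest of the SKPs. As deposited its differences were -0.99 (SE 0.34, adjusted p = 0.0392) in SKP-derived and -0.28 (SE 0.34, adjusted p = 0.491) in nerve Schwann cells, and after cyclic loess it was lower in both (-1.09 and -1.03; adjusted p = 0.0268 and 0.0304). The deposited call for SKP-derived cells was lost on leaving out any 1 of 6 arrays (nerve 3, SKP-derived 1, 2 or 3, SKP 1 or 2; adjusted p up to 0.130). Slc16a1, which moves lactate both ways, was called in neither, with -1.04 (SE 0.51, adjusted p = 0.131) and -1.20 (SE 0.51, adjusted p = 0.0612), and its SKP values were 8.63, 8.48 and 10.78. Without SKP array 3 its nerve difference was -0.46 (adjusted p = 0.0497), and after cyclic loess -1.48 (adjusted p = 0.0345).

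Upper glycolysis runs from the trapping of glucose by hexokinase to triose phosphates. Of its 11 genes, 6 were lower in each Schwann cell group (54.5%, against 22.3% of all genes in SKP-derived and 14.9% in nerve Schwann cells). In nerve Schwann cells 1 was higher (9.09%, against 49.7%). Hk2, the inducible hexokinase that binds mitochondria, was at 8.99, 9.77 and 11.31 in SKP arrays 1 to 3, 6.18, 6.59 and 6.85 in nerve Schwann cells and 5.77, 6.29 and 6.30 in SKP-derived Schwann cells. The SKP arrays were spread over more than 2 log2 units, yet the lowest of them was above every Schwann cell array, and the differences of -3.90 (SE 0.49, adjusted p = 0.000242) in SKP-derived and -3.49 (SE 0.49, adjusted p = 0.000293) in nerve Schwann cells were the furthest below SKPs among the 45 genes. Without SKP array 3 they were -3.26 and -2.84. Hk1, the constitutive hexokinase, was at 10.64, 10.62 and 10.51 in SKP arrays 1 to 3, 9.09, 9.03 and 9.34 in nerve Schwann cells and 9.26, 8.62 and 8.88 in SKP-derived Schwann cells, without the spread of Hk2 in SKPs. Its differences were -1.67 and -1.44 (adjusted p = 8.98e-05 and 0.000143).

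Phosphofructokinase commits sugar to glycolysis, and its subunits Pfkl, Pfkm and Pfkp were lower in both Schwann cell groups. Pfkp was at 8.50, 8.19 and 9.25 in SKP arrays 1 to 3, 6.72, 6.84 and 7.18 in nerve Schwann cells and 5.95, 6.61 and 6.15 in SKP-derived Schwann cells, with no overlap between SKPs and either group. Its differences were -2.41 (SE 0.28, adjusted p = 0.000156) in SKP-derived and -1.74 (SE 0.28, adjusted p = 0.000597) in nerve Schwann cells. For Pfkl they were -2.09 and -1.40 (adjusted p = 6.49e-05 and 0.000381). Pfkm, the muscle-type subunit, was at 9.56, 9.54 and 8.28 in SKP arrays 1 to 3, with array 3 over 1 log2 unit below the others, and overlapped nerve Schwann cells (8.36, 8.04 and 7.53). Its calls, -1.58 (SE 0.43, adjusted p = 0.0154) and -1.15 (SE 0.43, adjusted p = 0.0389), were lost without SKP array 1 or 2, the second also without nerve array 2 or 3 or SKP-derived array 1 (adjusted p up to 0.127), and became -2.01 and -1.57 without SKP array 3. Pfkfb3 and Pfkfb4 make and break the fructose bisphosphate that activates phosphofructokinase, and their patterns differed. Pfkfb4 was at 8.84, 8.06 and 7.40 in SKP arrays 1 to 3, 9.88, 10.10 and 10.95 in nerve Schwann cells and 8.89, 8.41 and 8.46 in SKP-derived Schwann cells, highest in all 3 nerve arrays and lowest in SKP array 3. It was higher in nerve Schwann cells than in SKPs, 2.21 (SE 0.37, adjusted p = 0.000782), and was not called for SKP-derived cells, 0.49 (SE 0.37, adjusted p = 0.321). Pfkfb3 was at 7.44, 7.58 and 10.32 in SKP arrays 1 to 3, 7.49, 7.74 and 7.86 in nerve Schwann cells and 7.18, 7.10 and 6.79 in SKP-derived Schwann cells. SKP array 3 alone was high, and neither comparison with SKPs was called (adjusted p = 0.0984 and 0.313).

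Aldolase A splits the sugar bisphosphate, and Aldoa was lower in both groups, -1.05 (SE 0.19, adjusted p = 0.00202) and -0.60 (SE 0.19, adjusted p = 0.0199). The nerve call was lost without nerve array 1 or 3 or SKP array 3, the last giving -0.42 (adjusted p = 0.0564). The brain-type aldolase Aldoc differed by 0.12 and 0.74, Tpi1 by 0.25 and -0.15 and Gpi by -0.39 and -0.39, none of them called as deposited. After cyclic loess Gpi, which turns glucose 6-phosphate into fructose 6-phosphate, was lower in both (-0.54 and -0.59; adjusted p = 0.0135 and 0.00806). Without SKP array 3, Tpi1 was higher in SKP-derived cells (0.46, adjusted p = 0.0282) and Aldoc in nerve Schwann cells (1.000, adjusted p = 0.0376). With cyclic loess as well they were 0.27 and 0.70, not called (adjusted p = 0.132 and 0.104).

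Lower glycolysis holds the steps that yield ATP. Of its 6 genes, 3 were lower in SKP-derived and 4 in nerve Schwann cells (50% and 66.7%, against 22.3% and 14.9% of all genes), and none was higher. Pgk1, which makes the first ATP of the pathway, was at 11.52, 11.63 and 12.30 in SKP arrays 1 to 3, 8.98, 9.19 and 8.96 in nerve Schwann cells and 8.88, 9.32 and 9.04 in SKP-derived Schwann cells. The lowest SKP array was more than 2 log2 units above the highest Schwann cell array, and the differences were -2.73 (SE 0.22, adjusted p = 1.84e-05) in SKP-derived and -2.77 (SE 0.22, adjusted p = 1.58e-05) in nerve Schwann cells. Pkm, the pyruvate kinase of most tissues, was at 12.84, 12.96 and 13.36 in SKP arrays 1 to 3, 10.56, 10.89 and 10.57 in nerve Schwann cells and 10.18, 10.84 and 10.34 in SKP-derived Schwann cells, again far apart. Its differences were -2.60 (SE 0.21, adjusted p = 2.15e-05) in SKP-derived and -2.38 (SE 0.21, adjusted p = 2.99e-05) in nerve Schwann cells, and its 3 features gave -2.66 to -2.60 and -2.55 to -2.38. Eno1, the common enolase, was at 13.09, 13.03 and 13.35 in SKP arrays 1 to 3, 11.33, 11.55 and 10.95 in nerve Schwann cells and 11.07, 11.05 and 11.11 in SKP-derived Schwann cells, and its differences were -2.08 and -1.88 (adjusted p = 2.37e-05 and 3.47e-05). For these 3 enzymes every call against SKPs held without SKP array 3, with differences of -2.49 and -2.53 for Pgk1, -2.45 and -2.22 for Pkm, and -1.98 and -1.78 for Eno1. Eno2, the neuronal enolase, was at 10.67, 11.09 and 12.09 in SKPs and was called in nerve Schwann cells, -1.13 (SE 0.33, adjusted p = 0.0128), or -0.72 without SKP array 3. In SKP-derived cells its difference was -0.82 (SE 0.33, adjusted p = 0.0698), which was called after cyclic loess (-0.93, adjusted p = 0.0404) and without SKP array 1 (adjusted p = 0.0203).

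Not all enzymes of the same stretch followed to the same extent. Gapdh, which acts just before Pgk1, was at 13.62, 13.22 and 13.44 in SKP arrays 1 to 3, 13.26, 13.46 and 13.10 in nerve Schwann cells and 13.44, 13.73 and 13.40 in SKP-derived Schwann cells, and the groups overlapped. Its differences were 0.10 (SE 0.16, adjusted p = 0.659) and -0.15 (SE 0.16, adjusted p = 0.431). Over its 16 features they ran from -0.61 to 0.10 and from -0.64 to -0.15, so the feature used lay at the upper end of both ranges. In nerve Schwann cells all 16 features were thus below SKPs. Unlike the feature used, most of the other Gapdh features had every SKP array above every Schwann cell array. The feature with the largest differences was at 13.735, 13.604 and 13.658 in SKPs, 13.064, 13.216 and 12.807 in nerve and 13.179, 12.804 and 13.197 in SKP-derived Schwann cells. The overlap of Gapdh thus belongs to the feature used and is not typical of its features. Pgam1, the phosphoglycerate mutase between Pgk1 and Eno1, differed by -0.14 and 0.23 (adjusted p = 0.589 and 0.316), and its other feature gave -0.30 and 0.73. Within 1 run of consecutive steps, and for the features used, Pgk1, Eno1 and Pkm were therefore called lower in both groups and Gapdh and Pgam1 in neither. Values of Gapdh and Pgam1 were above 12 in every array, and whether signals this high still follow the amount of RNA in proportion was not tested. Gapdh-like pseudogene copies are common in rodent genomes, so its signal is also uncertain on that ground.

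**Figure D2:**
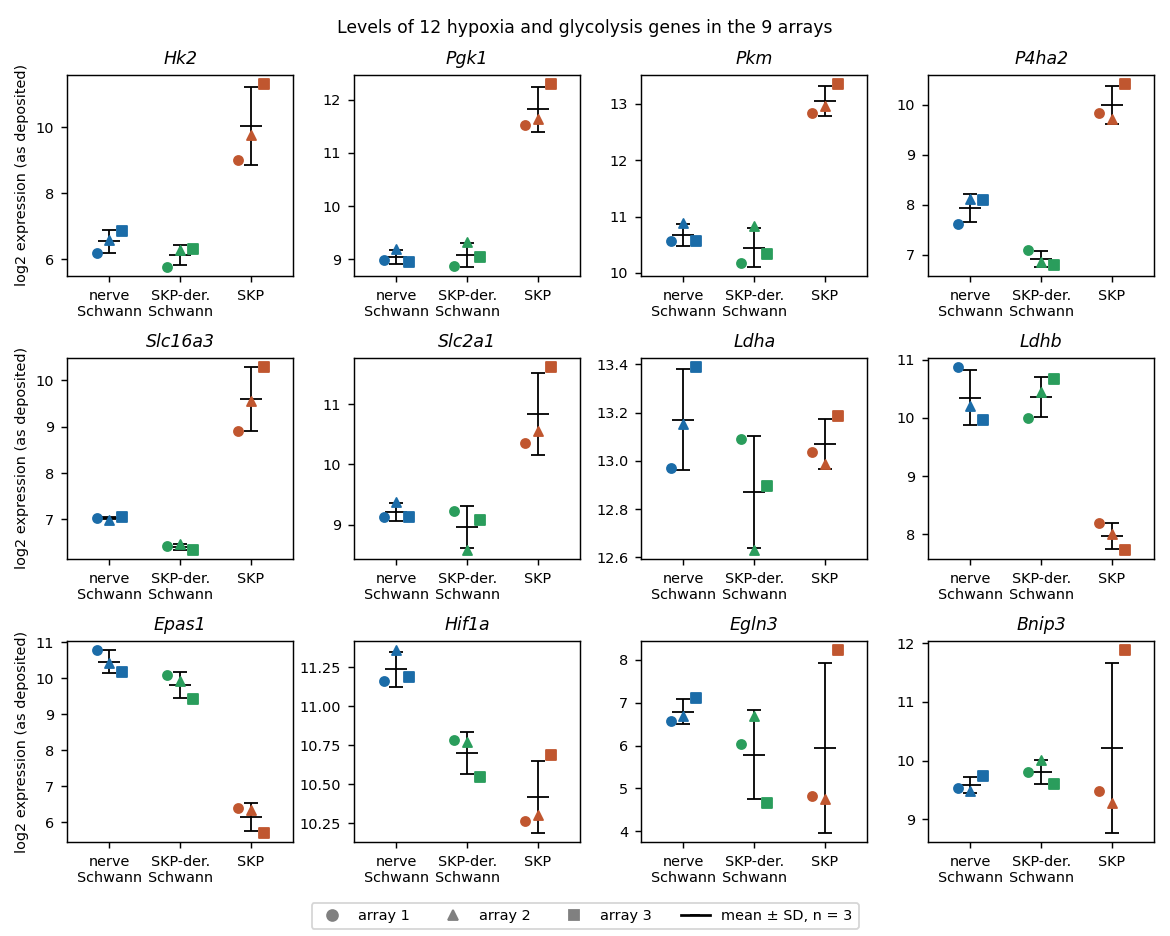
Log2 level as deposited of 12 of the genes, 1 per panel with its own vertical axis, in each array by group; symbols mark arrays 1 to 3 and bars the mean ± SD (n = 3). Hk2, Pgk1, Pkm, P4ha2, Slc16a3 and Slc2a1 are higher in all 3 SKP arrays than in any Schwann cell array, Epas1 and Ldhb are lower in all 3, Ldha overlaps between groups, and Egln3 and Bnip3 have their highest value in SKP array 3.

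Pyruvate is then either reduced to lactate by lactate dehydrogenase or admitted to the mitochondria. The A subunit of this enzyme favours lactate formation and the B subunit its use. Ldhb was at 8.19, 7.996 and 7.73 in SKP arrays 1 to 3, 10.88, 10.20 and 9.96 in nerve Schwann cells and 9.99, 10.44 and 10.66 in SKP-derived Schwann cells, with every Schwann cell array at least 1.5 log2 units above every SKP array. It was higher by 2.39 (SE 0.26, adjusted p = 0.000111) in SKP-derived and 2.37 (SE 0.26, adjusted p = 8.5e-05) in nerve Schwann cells. Ldha was at 13.04, 12.99 and 13.19 in SKP arrays 1 to 3, 12.97, 13.15 and 13.39 in nerve Schwann cells and 13.09, 12.63 and 12.89 in SKP-derived Schwann cells, and the groups overlapped. Its differences were -0.20 (SE 0.16, adjusted p = 0.361) and 0.10 (SE 0.16, adjusted p = 0.606). After cyclic loess it was called lower in SKP-derived cells (-0.47, adjusted p = 0.0361), which the deposited scale did not call. The other Ldha feature gave 0.29 and 0.24 as deposited, so for SKP-derived cells the features differed in sign. Values of the Ldha feature used were above 12 in every array, and whether they follow the amount of RNA in proportion was not tested.

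Pdk1 switches off pyruvate dehydrogenase and is a known HIF target. It was at 8.27, 8.16 and 9.15 in SKP arrays 1 to 3, 6.80, 6.91 and 6.69 in nerve Schwann cells and 6.23, 6.83 and 6.19 in SKP-derived Schwann cells, with no overlap between SKPs and Schwann cells. Its differences were -2.11 (SE 0.27, adjusted p = 0.000274) in SKP-derived and -1.72 (SE 0.27, adjusted p = 0.000523) in nerve Schwann cells. Its relative Pdk3 was called in neither, 0.57 (SE 0.26, adjusted p = 0.106) and -0.11 (SE 0.26, adjusted p = 0.714), but was higher in SKP-derived cells without SKP array 3 (0.76, adjusted p = 0.0441), though not with cyclic loess as well (0.72, adjusted p = 0.0524).

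Of the HIF alpha subunits, both were higher in nerve Schwann cells than in SKPs, and Epas1 also in SKP-derived cells. Epas1, which encodes HIF-2 alpha, was at 6.39, 6.34 and 5.70 in SKP arrays 1 to 3, 10.80, 10.43 and 10.17 in nerve Schwann cells and 10.10, 9.94 and 9.42 in SKP-derived Schwann cells. Every Schwann cell array was more than 3 log2 units above every SKP array, and the differences of 3.68 (SE 0.25, adjusted p = 9.23e-06) in SKP-derived and 4.32 (SE 0.25, adjusted p = 4.58e-06) in nerve Schwann cells were the furthest above SKPs among the 45 genes. Hif1a was at 10.27, 10.30 and 10.69 in SKP arrays 1 to 3, 11.16, 11.36 and 11.18 in nerve Schwann cells and 10.78, 10.77 and 10.55 in SKP-derived Schwann cells, in a narrower range. It was higher in nerve Schwann cells by 0.81 (SE 0.15, adjusted p = 0.00133), and 0.60 after cyclic loess. In SKP-derived cells the difference was 0.28 (SE 0.15, adjusted p = 0.168), and 0.41 without SKP array 3 (adjusted p = 0.044) or 0.25 with cyclic loess as well (adjusted p = 0.222).

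The hydroxylases that mark HIF for destruction, Egln1 and Egln3, were called in neither comparison as deposited. Egln3, itself a HIF target, was at 4.83, 4.76 and 8.23 in SKP arrays 1 to 3, 6.57, 6.68 and 7.12 in nerve Schwann cells and 6.03, 6.68 and 4.66 in SKP-derived Schwann cells. SKP arrays 1 and 2 were below every nerve array and SKP array 3 was above all 8 others. Its nerve difference was 0.85 (SE 0.86, adjusted p = 0.405) with all arrays and 1.99 without SKP array 3 (adjusted p = 0.00637), or 1.34 with cyclic loess as well (adjusted p = 0.0412), and its SKP-derived difference changed sign, from -0.15 to 0.99, without being called. Egln1, the main oxygen sensor, differed by -0.33 (SE 0.21, adjusted p = 0.239) and 0.48 (SE 0.21, adjusted p = 0.0707), and was called higher in nerve Schwann cells without SKP array 3 (0.59, adjusted p = 0.0457) but not with cyclic loess as well (0.29, adjusted p = 0.237). Its 2 features disagreed, with -0.33 and 0.82 for SKP-derived and 0.48 and 1.39 for nerve Schwann cells, so no direction is given for it.

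The collagen hydroxylases modify proline and lysine of procollagen and use oxygen to do so. All 4 were lower in both Schwann cell groups. P4ha2 was at 9.84, 9.71 and 10.42 in SKP arrays 1 to 3, 7.62, 8.12 and 8.09 in nerve Schwann cells and 7.09, 6.86 and 6.79 in SKP-derived Schwann cells, and its differences were -3.07 (SE 0.22, adjusted p = 9.61e-06) in SKP-derived and -2.05 (SE 0.22, adjusted p = 6.71e-05) in nerve Schwann cells. The 3 groups did not overlap for this gene, with SKPs highest and SKP-derived Schwann cells lowest. P4ha1, the other prolyl hydroxylase subunit, was also lower in both, -1.82 and -1.89 (adjusted p = 0.000382 and 0.000206). Plod2, the lysyl hydroxylase of collagen telopeptides, was at 9.99, 9.42 and 10.19 in SKP arrays 1 to 3, 7.55, 8.21 and 7.57 in nerve Schwann cells and 8.67, 9.37 and 8.09 in SKP-derived Schwann cells. It was lower in nerve Schwann cells, -2.09 (SE 0.34, adjusted p = 0.000594), and with a smaller difference in SKP-derived cells, -1.16 (SE 0.34, adjusted p = 0.021), where the call was lost without SKP-derived array 1 or 3 or SKP array 1 or 3 (-0.99 without the last, adjusted p = 0.058). Plod1 showed -2.04 (SE 0.35, adjusted p = 0.00155) and -1.04 (SE 0.35, adjusted p = 0.0267), and the nerve call was lost without nerve array 1 or 3 or SKP array 2 or 3 (-0.93 without the last). These enzymes serve collagen-making cells, and between groups dermal mesenchymal markers were lower as well. Of 13 markers, 10 were lower in SKP-derived and 9 in nerve Schwann cells, against 22.3% and 14.9% of all genes. Within SKPs the lists did not move together. Over SKP arrays 1 to 3 the hydroxylase mean was 10.57, 10.47 and 11.13 and the dermal mean 12.20, 12.18 and 10.75. In nerve Schwann cells both means were highest in array 2. Over SKP-derived arrays 1 to 3 the hydroxylase mean was 8.99, 8.81 and 8.31 and the dermal mean 8.51, 10.26 and 9.35. There, array 1 was highest for the hydroxylases and lowest for the dermal markers. The part of these markers in the result was not tested.

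Of the secreted and pH-related targets, Vegfa and Car9 varied mostly within the groups as deposited, whereas Adm differed between SKPs and both Schwann cell groups. Vegfa, the angiogenic factor, was at 8.28, 8.49 and 10.74 in SKP arrays 1 to 3, 8.71, 9.21 and 9.04 in nerve Schwann cells and 8.35, 9.87 and 8.41 in SKP-derived Schwann cells. SKP array 3 and SKP-derived array 2 were high, the groups overlapped, and neither difference was called, with -0.30 (SE 0.62, adjusted p = 0.726) and -0.18 (SE 0.62, adjusted p = 0.811). Car9, a carbonic anhydrase much used as a hypoxia marker, was at 6.07, 6.05 and 6.87 in SKP arrays 1 to 3, 6.37, 6.22 and 6.22 in nerve Schwann cells and 6.08, 6.20 and 5.98 in SKP-derived Schwann cells. Only SKP array 3 stood out, and the differences were -0.24 (SE 0.21, adjusted p = 0.392) and -0.06 (SE 0.21, adjusted p = 0.817). After cyclic loess Car9 was called lower in nerve Schwann cells (-0.71, adjusted p = 0.0233), while without SKP array 3 its deposited difference was 0.21. Adm, the vasodilator adrenomedullin, was lower in both groups, -2.36 (SE 0.34, adjusted p = 0.00055) and -1.73 (SE 0.34, adjusted p = 0.00179), and without SKP array 3 the differences were -1.88 and -1.25.

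The remaining 9 genes act in mitophagy, growth control, haem breakdown and protein folding. In SKP-derived cells 2 were lower and 2 higher (22.2% each, against 22.3% and 19.3% of all genes). In nerve Schwann cells 1 was lower and 3 higher (11.1% and 33.3%, against 14.9% and 49.7%). These counts were near or below the shares of all genes. Ndrg1, a stress gene also needed for peripheral myelin, was higher in both, 1.78 (SE 0.38, adjusted p = 0.00477) and 1.87 (SE 0.38, adjusted p = 0.00205). Mxi1, which opposes MYC, was higher in nerve Schwann cells, 1.60 (SE 0.34, adjusted p = 0.00263), and not called in SKP-derived cells, 0.67 (SE 0.34, adjusted p = 0.145), whose array 2 lay over 1 log2 unit below the other 2 at 8.65. Without that array Mxi1 was called higher in SKP-derived cells too (adjusted p = 0.00676). Bnip3l, a mitophagy receptor, was higher in both, 0.35 (SE 0.12, adjusted p = 0.0387) and 0.59 (SE 0.12, adjusted p = 0.00204). The first call was lost on leaving out any 1 of the 9 arrays (adjusted p up to 0.0768) and after cyclic loess (0.19). Its relative Bnip3 was at 9.48, 9.28 and 11.89 in SKP arrays 1 to 3, 9.54, 9.48 and 9.73 in nerve Schwann cells and 9.80, 10.01 and 9.60 in SKP-derived Schwann cells, so that only SKP array 3 was apart, and it was not called (-0.41 and -0.63, adjusted p = 0.586 and 0.346). Hmox1, haem oxygenase 1, was at 7.88, 7.96 and 10.49 in SKP arrays 1 to 3, 6.59, 7.05 and 6.60 in nerve Schwann cells and 6.43, 7.75 and 5.96 in SKP-derived Schwann cells. Its differences, -2.06 (SE 0.67, adjusted p = 0.0342) and -2.03 (SE 0.67, adjusted p = 0.0241), rested in size on SKP array 3: without it they were -1.21 (adjusted p = 0.0538) and -1.17 (adjusted p = 0.0413). The SKP-derived call of Hmox1 was also lost without nerve array 1 or SKP-derived array 1 or 3, and the nerve call without nerve array 1 or 3 (adjusted p up to 0.112 and 0.0656). Ero1a, an oxidase of protein folding, was at 9.16, 9.73 and 11.39 in SKPs and was lower in SKP-derived cells, -1.41 (SE 0.46, adjusted p = 0.0346), or -0.76 without SKP array 3. That call was lost without nerve array 3 or any 1 of the SKP-derived arrays (adjusted p up to 0.0848). Ddit4, Ankrd37 and Kdm3a, which respectively brake growth signalling, serve as a hypoxia marker and demethylate histones, were called in neither comparison, with differences from -0.55 to 0.54.

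**Figure D3:**
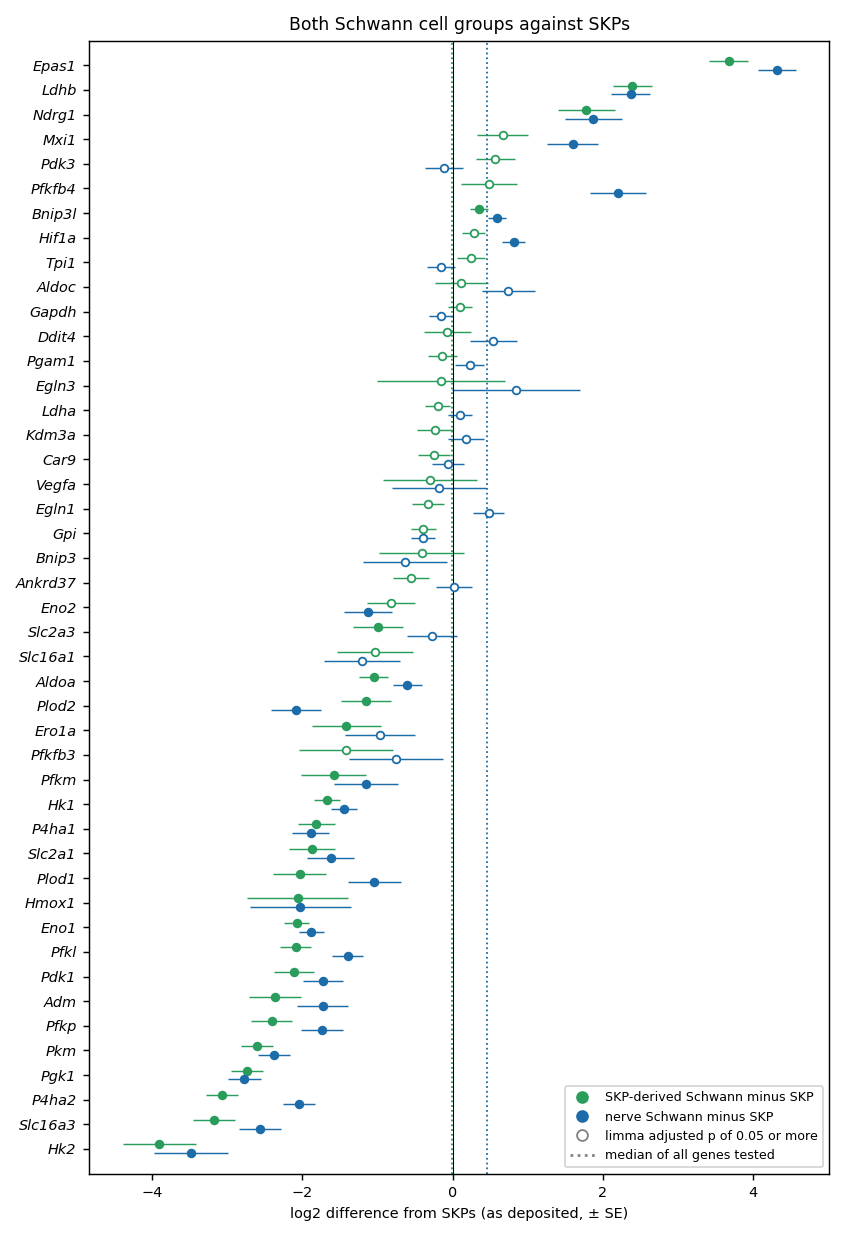
Difference from SKPs (log2, with SE) for each of the 45 genes in SKP-derived (green) and nerve Schwann cells (blue), as deposited, ordered by the SKP-derived difference; filled points have a limma adjusted p under 0.05, and dotted lines mark the median of all genes tested (-0.01 and 0.46). Hk2 lies furthest left (-3.90 and -3.49) and Epas1 furthest right (3.68 and 4.32), and both sets of points use the same 3 SKP arrays.

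Within SKPs, 1 array differed from the others on many of these genes. SKP array 3 held the highest SKP value for 37 of the 45 genes, array 1 for 8 and array 2 for 0, where over all genes tested the shares were 38.0%, 33.8% and 28.2%. It was over 1 log2 unit above both other SKP arrays for 11 genes, against 1.86% of all genes, and the same count was 0 for array 1 (1.14% of all genes) and 0 for array 2 (0.221%). The 11 were Slc2a1, Slc16a1, Hk2, Pfkfb3, Eno2, Egln3, Vegfa, Adm, Bnip3, Hmox1 and Ero1a, and 9 of them, all but Slc2a1 and Eno2, passed the same limit after cyclic loess. Among the other members, Gapdh, Ldha and Hk1 differed by less than 0.5 across the SKP arrays, and Pfkm was lowest in array 3. With 1 array there is no test of this, and it describes that sample.

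Other gene lists moved with SKP array 3. Over SKP arrays 1 to 3, the mean of 16 proliferation genes of 18 listed was 8.46, 8.01 and 6.38, and that of 12 stress and RNA quality genes of 14 listed was 9.11, 9.21 and 10.14. The dermal mesenchymal mean was 12.20, 12.18 and 10.75, and that of 13 macrophage and immune genes was 8.16, 6.25 and 5.59, highest in array 1. The part of these lists in the values of array 3 was not tested. Leaving out SKP array 3 left 18 genes lower in SKP-derived cells both with and without it, and 17 in nerve Schwann cells. Of all genes, 22.3% with it and 22.2% without it were lower in SKP-derived cells, and 14.9% and 15.3% in nerve Schwann cells. The share of all genes lower in both fits was not computed. On the deposited scale, leaving it out added calls of Tpi1, Pdk3 and Hif1a in SKP-derived cells and ended those of Plod2, Bnip3l and Hmox1. In nerve Schwann cells it added calls of Slc16a1, Aldoc, Egln1, Egln3 and Ankrd37 and ended those of Aldoa and Plod1. Of the 8 added calls, those of Slc16a1 (-0.77, adjusted p = 0.00476) and Egln3 were also made with cyclic loess and without array 3, and the other 6 were not (for Ankrd37, -0.22, adjusted p = 0.167). Some of these 8 calls were also added as deposited by leaving out another array: for nerve Schwann cells Slc16a1 without SKP array 1 or 2, Aldoc without SKP-derived array 2 or 3 and Egln1 without SKP-derived array 2, and for SKP-derived cells Pdk3 without SKP-derived array 1. Beyond the 8, calls were added in nerve Schwann cells for Ero1a without SKP array 1 and Ddit4 without SKP-derived array 2. Gpi was called there without SKP array 1 or SKP-derived array 2. In SKP-derived cells, Pfkfb3 was called without SKP array 1 and Ankrd37 without SKP array 2, besides Eno2 and Mxi1 as given above.

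**Figure D4:**
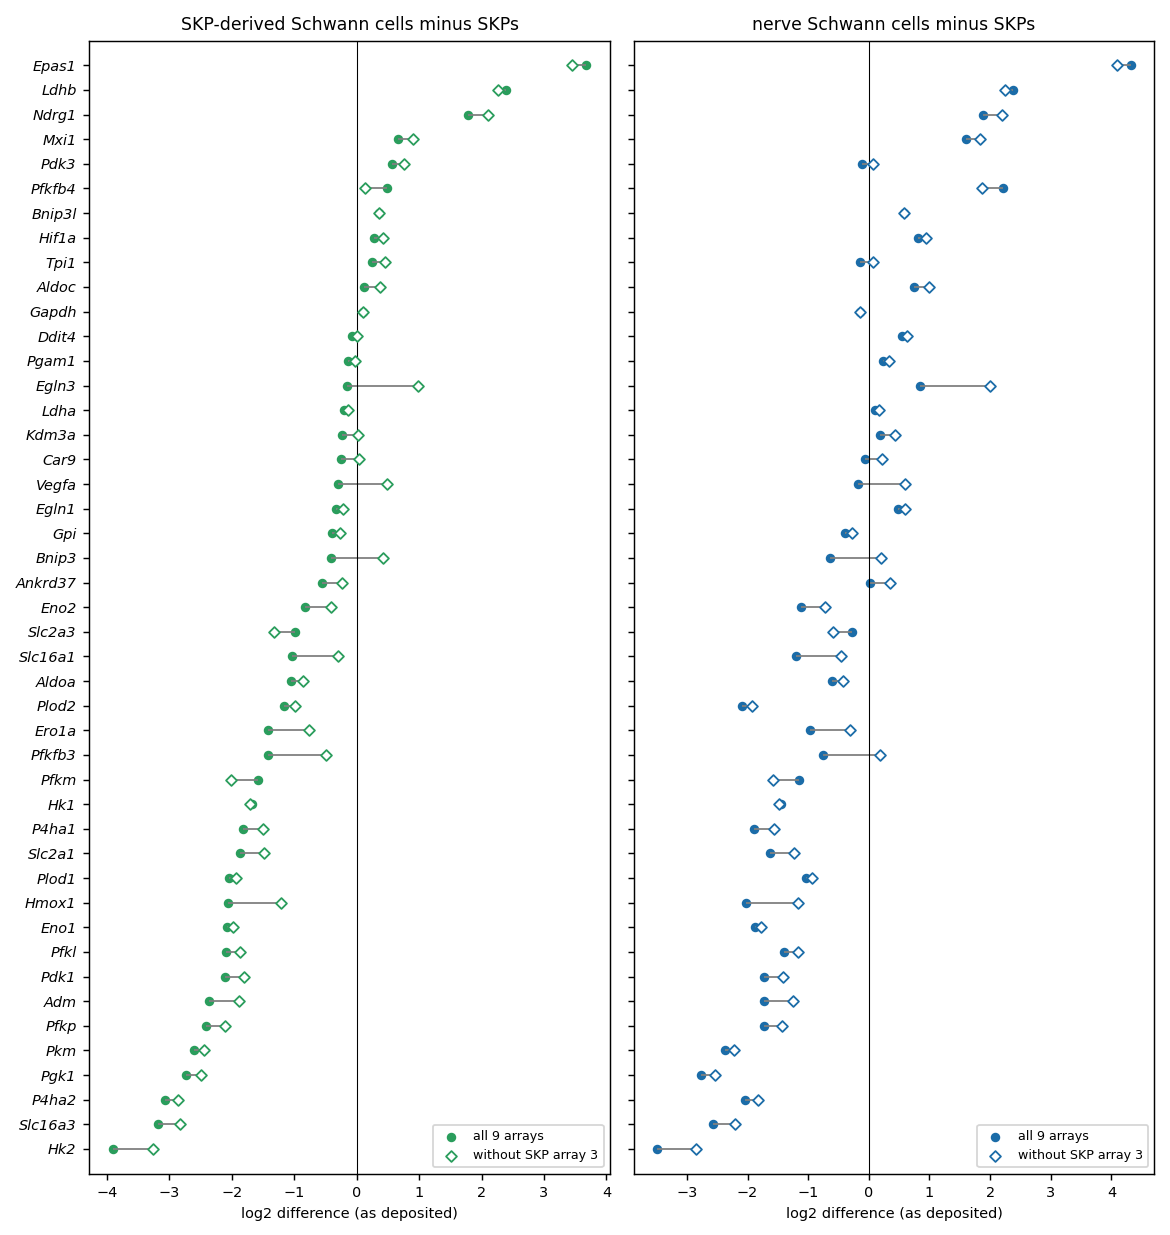
Difference from SKPs (log2, as deposited) for each of the 45 genes in SKP-derived (left) and nerve Schwann cells (right), with all 9 arrays (filled) and without SKP array 3 (open), joined by a line. The lines are short for Pgk1, Pkm and Hk1 and long for Egln3, Bnip3, Vegfa and Pfkfb3, whose differences lie further right without that array.

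Fewer of the genes were called between the Schwann cell groups, and the calls depended on the scaling. As deposited, 7 of the 45 genes were lower in SKP-derived cells and 1 was higher, against 42.3% and 1.33% of all genes. After cyclic loess the limma counts were 0 lower and 0 higher, against 0.600% and 0.731% of all genes. With quantile normalisation they were also 0, where 110 of all 14506 genes were lower and 130 higher. With median centring 4 were higher and 0 lower, where 482 of all 14506 genes were higher and 234 lower. At an unadjusted p under 0.05 after cyclic loess, 11 of the 45 passed, where 20.0% of all genes did, and the lowest adjusted p was 0.0883, for Pfkfb4. The 7 lower on the deposited scale were Pfkfb4, P4ha2, Plod1, Mxi1, Egln1, Pfkl and Hif1a, and the 1 higher was Plod2. Pfkfb4 showed -1.72 (SE 0.37, adjusted p = 0.00733), with all 3 SKP-derived arrays below all 3 nerve arrays, and -1.47 after cyclic loess. P4ha2 showed -1.03 (SE 0.22, adjusted p = 0.00637), also without overlap, and -0.71 after cyclic loess (adjusted p = 0.105). These calls of Pfkfb4 and P4ha2 held on leaving out each of the 9 arrays in turn on the deposited scale. Each of the other 6 calls was lost without at least 1 array (adjusted p up to 0.143). Leaving out any 1 of the nerve arrays ended the calls of Pfkl, Hif1a, Plod1 and Mxi1, nerve array 1 or 3 that of Plod2, and nerve array 2 that of Egln1. SKP-derived array 1 ended the call of Plod2, array 2 those of Pfkl, Plod1, Plod2 and Mxi1, and array 3 those of Hif1a and Plod1, while SKP array 1 ended those of Plod1, Plod2 and Mxi1 and SKP array 2 those of Plod1 and Mxi1. The count of called genes was 3 without any 1 of the nerve arrays and 5 without SKP-derived array 2. Without SKP array 3, which enters this comparison only through the shared spread, 14 genes were lower and 3 higher as deposited. Of the 45 these were 31.1% and 6.67%, against 48.1% lower and 2.03% higher of all genes. Plod2 went against the rest, with 0.93 (SE 0.34, adjusted p = 0.0477) and 1.21 after cyclic loess (adjusted p = 0.122), although the groups overlapped. The mean of the 45 genes differed by -0.34 as deposited, -0.11 after cyclic loess and 0.13 after median centring, so its sign depended on the scaling.

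**Figure D5:**
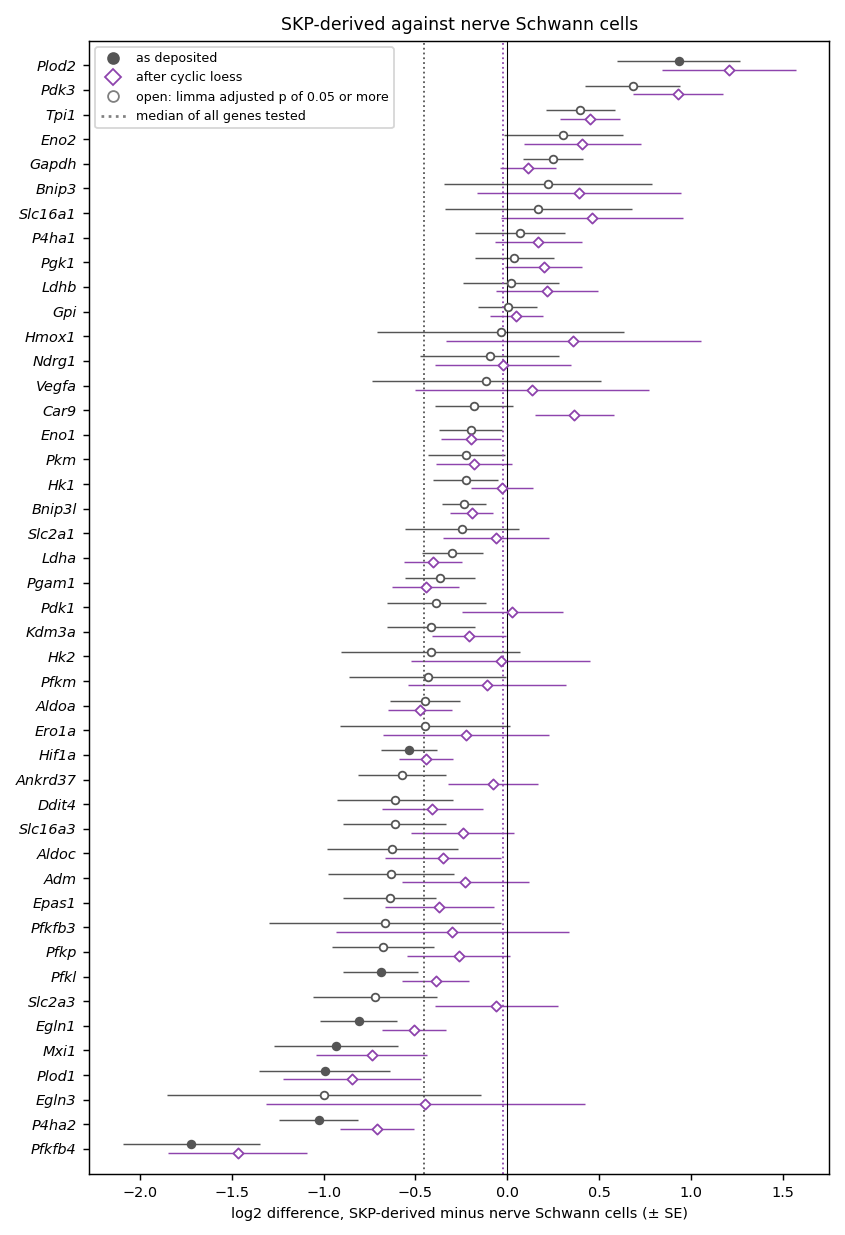
Difference of SKP-derived minus nerve Schwann cells (log2, with SE) for the 45 genes, as deposited (circles) and after cyclic loess (diamonds); filled points have a limma adjusted p under 0.05, and dotted lines mark the median of all genes tested (-0.45 and -0.02). As deposited 8 points are filled, and after cyclic loess none is, with values from -1.47 (Pfkfb4) to 1.21 (Plod2).

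Genes of the same pathways outside the 45 were counted from lists of their own, and are read against the 22.3% lower and 19.3% higher of all genes in SKP-derived cells and the 14.9% and 49.7% in nerve Schwann cells (23.9% and 18.6%, and 25.6% and 22.4%, after cyclic loess). Of 22 measured glycolytic isoenzymes and branch enzymes of 27 listed, 5 were lower and 2 higher in SKP-derived cells, and 5 lower and 9 higher in nerve Schwann cells. After cyclic loess the counts were 6 and 2, and 7 and 3. Shares of this list were 22.7% lower and 9.09% higher in SKP-derived and 22.7% lower and 40.9% higher in nerve Schwann cells, as deposited. In this list Pgm1, Gys1 and Pgm2, enzymes that work on glycogen or its sugar phosphates, had the largest differences in both groups. Pgm1, which joins glycogen to glycolysis, was at 9.86, 9.93 and 9.96 in SKP arrays 1 to 3, 6.94, 7.06 and 7.09 in nerve Schwann cells and 6.48, 6.29 and 6.72 in SKP-derived Schwann cells, with differences of -3.42 (SE 0.14, adjusted p = 8.66e-07) in SKP-derived and -2.89 (SE 0.14, adjusted p = 1.75e-06) in nerve Schwann cells. Gys1, glycogen synthase, showed -2.53 and -2.09 (adjusted p = 0.000208 and 0.00038), Pgm2 -2.20 and -1.90, and the branching enzyme Gbe1 -1.49 and -0.98, all called lower as deposited and after cyclic loess. The SKP values of Gys1 were 8.72, 9.05 and 9.96, highest in array 3. Among 13 regulators of HIF, 2 were lower and 3 higher in SKP-derived and 3 lower and 5 higher in nerve Schwann cells (2 and 3, and 4 and 4, after cyclic loess), with shares of 15.4% lower and 23.1% higher in SKP-derived and 23.1% lower and 38.5% higher in nerve Schwann cells, as deposited. The coactivators Ep300 (1.56 and 2.04) and Crebbp (0.90 and 1.62) were higher in both, and Cul2, part of the VHL ligase, was lower in both (-1.12 and -1.06).

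Of 22 measured other hypoxia-induced genes of 27 listed, 7 were lower and 2 higher in SKP-derived and 7 lower and 3 higher in nerve Schwann cells (8 and 2, and 10 and 2, after cyclic loess). The shares were 31.8% lower and 9.09% higher in SKP-derived and 31.8% lower and 13.6% higher in nerve Schwann cells, as deposited. The median difference was -0.46 and -0.07 as deposited and -0.48 and -0.63 after cyclic loess. Without SKP array 3 it was -0.34 and 0.08, so its sign in nerve Schwann cells moved with that array. The counts were then 7 lower and 3 higher in SKP-derived and 6 lower and 6 higher in nerve Schwann cells. Of all genes, 22.2% and 18.7%, and 15.3% and 49.0%, were then lower and higher. Stc2, a secreted glycoprotein, was lower in both (-3.26 and -3.11, adjusted p = 0.00226 and 0.00168), as was Igfbp3 (-2.78 and -2.20, adjusted p = 0.000562 and 0.00121). The SKP values of Stc2 were 9.36, 9.55 and 11.91, highest in array 3. Angptl4, an inhibitor of lipoprotein lipase, lay the other way: it was at 5.37, 5.53 and 5.37 in SKP arrays 1 to 3, 10.50, 10.17 and 8.75 in nerve Schwann cells and 9.03, 8.13 and 8.76 in SKP-derived Schwann cells, with differences of 3.22 (SE 0.41, adjusted p = 0.000254) in SKP-derived and 4.39 (SE 0.41, adjusted p = 3.74e-05) in nerve Schwann cells. Of 23 measured genes of pyruvate entry and the tricarboxylic acid cycle of 27 listed, 9 were lower and 7 higher in SKP-derived and 8 lower and 7 higher in nerve Schwann cells (10 and 6, and 10 and 5, after cyclic loess). The shares were 39.1% lower and 30.4% higher in SKP-derived and 34.8% lower and 30.4% higher in nerve Schwann cells, as deposited. Pdk4, another kinase of pyruvate dehydrogenase, was at 4.88, 5.01 and 5.30 in SKP arrays 1 to 3, 10.001, 9.61 and 8.37 in nerve Schwann cells and 9.70, 7.46 and 8.49 in SKP-derived Schwann cells. It was higher by 3.48 (SE 0.55, adjusted p = 0.000866) in SKP-derived and 4.26 (SE 0.55, adjusted p = 0.000187) in nerve Schwann cells, in the direction opposite to Pdk1, and the enzyme's own subunit Pdha1 was lower (-1.78 and -1.37; adjusted p = 7.54e-05 and 0.000221). The median difference of the cycle genes was -0.11 and 0.01 as deposited, and -0.19 and -0.29 after cyclic loess. No list moved to 1 side throughout.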

How the data were processed

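RNA of 9 cultured samples was hybridised to Affymetrix Rat Gene 1.0 ST arrays. The authors deposited log2 values for 29214 features. Per the submitters' processing notes, the software was Affymetrix Expression Console and the method RMA. RMA corrects background, scales arrays to each other and summarises probes. Not given in the sources used here are software versions, genome build and whether the 9 arrays were scaled together. No detection calls were used, so a low value cannot be told from background, and precision is limited by the number of arrays. The platform annotation gives 1 symbol for 15310 features, several for 323 and none for 13581, and the last 2 kinds were left out. The feature with the highest mean stood for a gene (8 of the 45 members have more than 1), which left 14506 genes. Group means were fitted to all 9 arrays with limma 3.58.1 (lmFit and eBayes) in R 4.3.3, after a check on simulated data. Every p-value printed is limma's, adjusted with Benjamini-Hochberg over all 14506 genes unless called unadjusted, and the threshold was 0.05. The error given with a difference is the fit's standard error. The 45 members and the gene lists were chosen with earlier results of these data known. Every member may be named. Values in every array are given for 12 fixed members and, per comparison with SKPs, for the 8 called members that differed most in the same direction after cyclic loess. The other lists name up to 4 called genes by the same rule. Per-array values of further members, Egln3, Bnip3, Pfkfb3, Eno1 and Gapdh among them, were chosen after their values were seen, as was the fit that joined cyclic loess with leaving out SKP array 3. Alternatives were median centring, cyclic loess, quantile normalisation, leaving out dim genes, the mean of a gene's features, a fit of 2 groups, robust trended variances, a replicate block, array weights, a threshold of 0.01, a 2-fold minimum and leaving out each array. Promoter windows are RefSeq's, of assembly GRCr8, and only their letters and positions were used. A gene carried a motif if any of its windows did, a rule chosen after the values were seen.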

Additional observations from a re-analysis of the deposited data

How the results depend on the processing

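The count of the 45 genes called against SKPs stayed within 1.5 times of 24 (SKP-derived) and 26 (nerve) under every alternative run, including the replicate block, which gave 22 and 27. The count between the Schwann cell groups did not hold: it was 8 as deposited and 7 with the replicate block, but 4 with median centring, 0 with cyclic loess, 0 with quantile normalisation, 3 without dim genes, 13 with 2 groups fitted, 16 with array weights, 2 at a threshold of 0.01, 2 with a 2-fold minimum, 1 with cyclic loess and no SKP array 3, and 3 to 17 on leaving out each array. The share of all genes called also moves with the setting, and for most of these settings it is not given here. These counts therefore do not show whether the 45 genes were called more or less often than all genes. The mean difference of the 45 genes between the Schwann cell groups was -0.34 as deposited, 0.13 with median centring, -0.11 with cyclic loess (with and without SKP array 3) and -0.10 with quantile normalisation. Between nerve Schwann cells and SKPs it was -0.50 as deposited and -1.11 with median centring, which also turned Ldha (-0.50) and Bnip3l (-0.0153) to the other side of 0. The cause was not tested. The deviations of samples of the same number had correlations of -0.12 to 0.29 over 9 pairs, against -0.27 to 0.18 over 18 other pairs. These ranges overlap, but most same-number values were above 0, among them all of nerve with SKP-derived arrays (0.07, 0.29 and 0.15). The labels do not give the numbers as pairs, so they were not taken as pairs, and pairing was not tested further. With 3 arrays per group and no detection calls, small differences and low levels are beyond these data.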
